A study of Mus musculus with 3 samples.

Results

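The glomerular layer (GL) is the outer belt of the olfactory bulb in which the axons of smell-sensing neurons end, and it was studied here as the spots that the authors' region annotation places in it. Spots were taken by that region name in each section, and 483278 of 2250425 spots under tissue (158629, 149579 and 175070 in sections 1, 2 and 3) carried it. Of these, 91569 held at least 1 transcript count, 332335 counts in all. The study captured poly(A) RNA on dense spot arrays under 3 sections of the main olfactory bulb, cut in the coronal plane, of C57BL/6J mice aged 12 weeks, and the labels give no treatment or other group. The comparisons are between regions of the same sections. The annotation names 8 other regions. The olfactory nerve layer (ONL) lies outside the glomerular layer. Inside it follow the plexiform layers, external (EPL) and internal (IPL), with the mitral layer (M/T) between them, then the granule cell layers, external (GCL-E) and internal (GCL-I), and at the core the rostral migratory system (RMS) and an ependymal cell zone (E). The labels do not tie sections to animals, so n = 3 below counts sections. P-values of genes measure how region differences vary among these sections once differences shared by a whole section are removed. This spread may be technical. In comparisons between regions it was estimated from all 9 regions together, also in a test against a single region. The sources used here do not say whether gene expression was used to draw the region borders.

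In a glomerulus, the axons of sensory neurons that carry the same odorant receptor meet the apical dendrites of mitral and tufted cells, the output neurons of the bulb. Around it sit periglomerular interneurons, many of them GABAergic and some also dopaminergic or calretinin-positive, together with external tufted cells, astrocytes and blood vessels. Ensheathing glia wrap the incoming axons in the nerve layer outside and at the glomerular border. A spot takes up RNA from whatever lies over it, so the layer's RNA is a mixture of these cells and their processes, and fewer cells of a type and less RNA per cell cannot be told apart.

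Th, tyrosine hydroxylase, the rate-limiting enzyme of dopamine synthesis, was among the 5 markers against which the annotation was checked. Its promoter was picked for display. Among the genes searched, it alone held a cAMP response element (CRE, TGACGTCA, searched on both strands). The window is chr7:142899946-142900245 of GRCm38.p6 on the minus strand, 250 bases before to 50 bases after the RefSeq start site. Capitals mark the element, whose first base lies 45 bases before that site.
Th promoter: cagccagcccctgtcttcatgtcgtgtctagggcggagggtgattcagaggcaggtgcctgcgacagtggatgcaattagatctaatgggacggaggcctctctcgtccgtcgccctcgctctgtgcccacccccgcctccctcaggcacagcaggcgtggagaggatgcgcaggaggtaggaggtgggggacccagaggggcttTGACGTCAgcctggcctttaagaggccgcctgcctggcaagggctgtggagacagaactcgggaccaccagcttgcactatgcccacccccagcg
The element is present in 588 of 32851 RefSeq windows of this length (1.79%). Genes named only as members of a list were not searched. Of the 76 searched, which were the markers, genes named by size and others picked for the text, 60 had a window. An Olf/EBF motif (both strands, present in 0.904% of windows) was found in 1 of them, that of Scg3, and a T-box motif (AGGTGTGA, both strands, 1.28% of windows) in 0. None of the 3 motifs contains another, and a match describes letters, not binding.

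The layer gave 49049, 151058 and 132228 counts in sections 1, 2 and 3, from 9314, 13413 and 13041 detected genes. It held 21.3 ± 6.31% (SD, n = 3) of the counts and 21.9 ± 3.57% of the spots of the named regions. Per 100 spots it gave 69.1 ± 35.5 counts, against 58.7 ± 34.6 in ONL, 60.9 ± 30.8 in EPL and 91.0 ± 43.3 in M/T. On the log2 scale the layer stood at -0.13 relative to the mean of the other regions (-0.47, 0.05 and 0.04 in sections 1, 2 and 3), which an exact two-sided permutation test of region labels within sections did not separate from 0 (p = 0.630, smallest possible 0.00137). Section 1 stood apart within the layer. With counts of each summed region scaled to a common total (CPM), Pearson's r of log2(CPM + 10) over 19621 genes was 0.758 and 0.756 between section 1 and sections 2 and 3, and 0.896 between sections 2 and 3, where genes are not independent replicates. Lars2, a mitochondrial leucyl-tRNA synthetase gene, measured 102 CPM in section 1, against 23018 and 18975 CPM in sections 2 and 3. A count of 3, the floor used below, is 61.2, 19.9 and 22.7 CPM in the 3 sections, so values of low genes in section 1 rest on few molecules.

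The annotation was checked against 5 markers of the layer's neurons, and 4 of them were higher there than in the other regions. Calb2 (calretinin, a calcium-binding protein of periglomerular interneurons) measured 1529, 649 and 809 CPM in the layer in sections 1, 2 and 3, against 622, 332 and 295 CPM for the mean of the other 8 regions. All 3 layer values lay above all 3 values of the others. The log2 fold change was 1.46 ± 0.16 (SE), adjusted p = 1.47e-16. Th measured 571, 199 and 166 CPM in the layer and 233, 78.6 and 61.8 CPM in the others. Section 1 was high on both sides, so the ranges overlapped, while the layer was higher within each section (1.50 ± 0.28, adjusted p = 4.59e-06). Eomes, a T-box transcription factor of mitral and tufted cells, measured 245, 232 and 303 CPM in the layer and 105, 71.4 and 80.5 CPM in the others, a ratio of means of 3.03 (adjusted p = 3.93e-09). These ranges did not overlap, although the section 1 value rests on 12 counts (exact Clopper-Pearson 95% interval 126 to 427 CPM, counting error only). Nxph1, neurexophilin-1, a secreted ligand of neurexins, measured 163, 205 and 265 CPM in the layer and 25.2, 66.6 and 134 CPM in the others. Its ranges did not overlap either (2.28 ± 0.37, adjusted p = 6.61e-08).

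Reln did not follow the label. This secreted glycoprotein, made by mitral and tufted cells, measured 326, 278 and 219 CPM in the layer and 299.7, 225 and 199.6 CPM in the other regions (0.54 ± 0.23, adjusted p = 0.121). It was highest in M/T at 547 ± 67.1 CPM, then EPL at 402 ± 117, ONL at 276 ± 154 and the layer at 275 ± 53.5, and none of these 3 regions differed from the layer past the threshold. Reln did differ from the layer in GCL-I (147 ± 28.4 CPM, adjusted p = 0.0181) and E (82.8 ± 42.5 CPM, adjusted p = 6.13e-06). By mean level, Eomes, Calb2 and Th were highest in the layer. Neighbours in that order were not all separable. Eomes averaged 259.6 ± 37.7 CPM in the layer, 202 ± 14.6 in M/T, 151 ± 72.8 in EPL and 92.3 ± 32.2 in ONL, none of which differed from the layer past the threshold (adjusted p = 0.620, 0.168 and 0.128), while RMS had 0 counts. Calb2 averaged 996 ± 469 CPM in the layer and 856 ± 490.3 in M/T (adjusted p = 0.462), and was lower past the threshold in each of the other 7 regions, with 230.0 ± 67.5 CPM in E the lowest. Th averaged 312 ± 225 CPM in the layer and 267 ± 215 in ONL (adjusted p = 0.906), and passed against EPL, M/T, GCL-I and E. Nxph1 averaged 229 ± 397 CPM in RMS on a single count, and 211 ± 51.0 in the layer. It did not pass against ONL (115 ± 96.5 CPM, adjusted p = 0.633), and the lowest of the others was M/T at 21.1 ± 36.6 CPM (adjusted p = 0.00101).

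**Figure D1:**
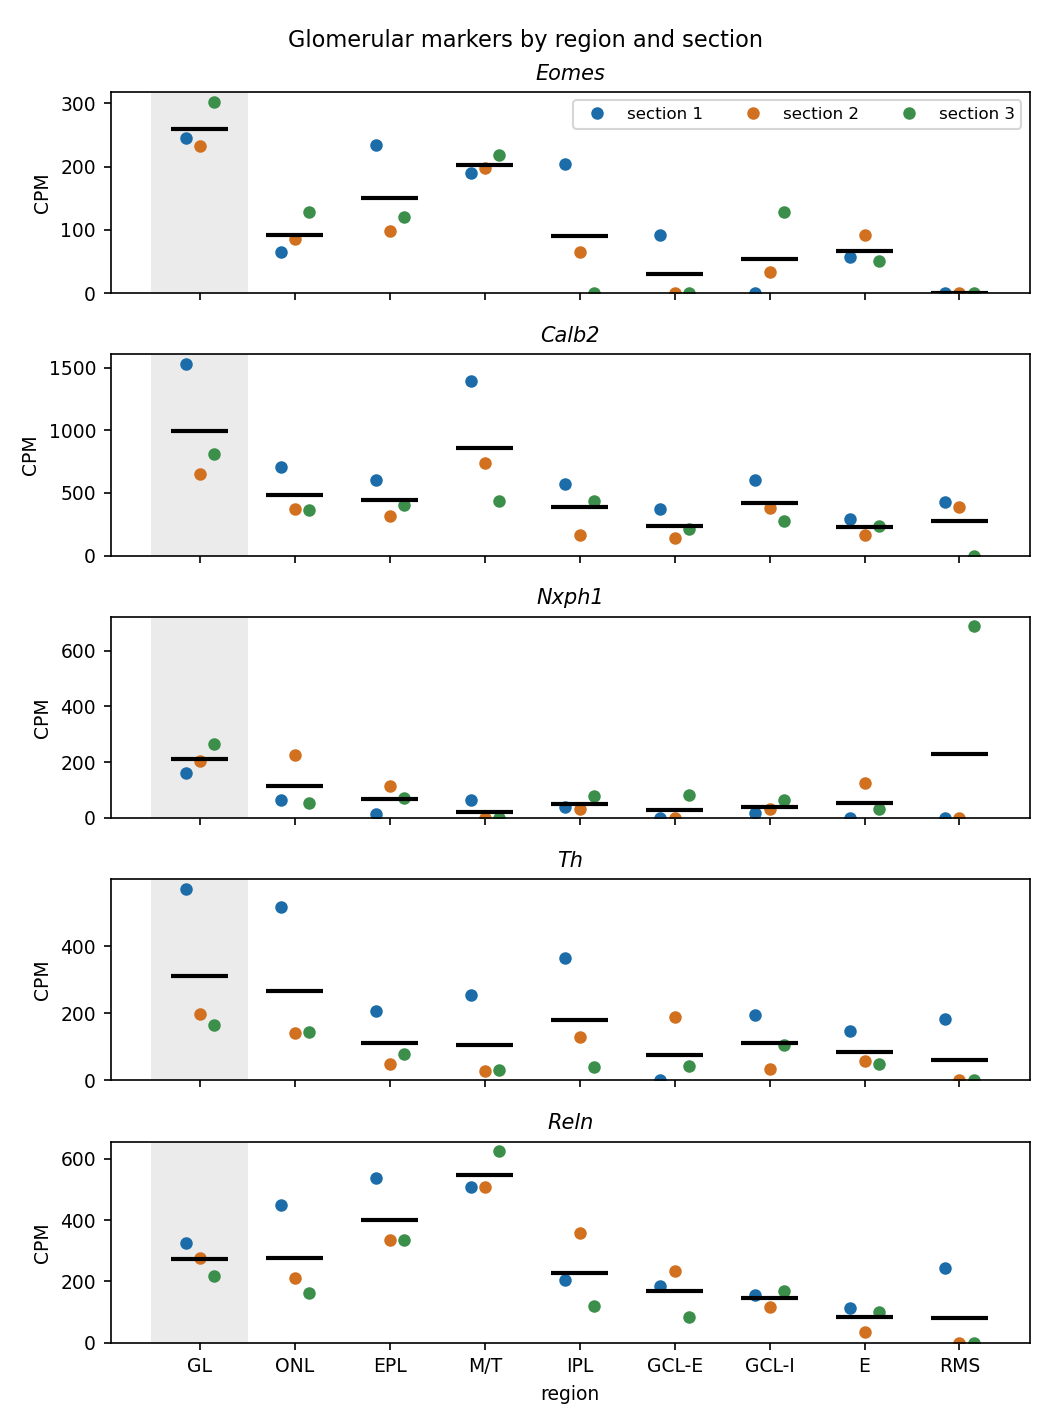
Level of the 5 markers (CPM, one panel per gene) in each of the 9 regions, with one point per section and a black bar at the mean of 3 sections. The glomerular layer, shaded at the left, has the highest mean for Eomes, Calb2 and Th, whereas Reln peaks in the mitral layer and Nxph1 in RMS is a mean of 229 CPM that rests on 1 count.

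Which transcripts set the layer apart was asked first against the unweighted mean of the other 8 regions. Of 1996 genes tested, 218 (10.9%) differed, 175 higher (8.77%) and 43 lower (2.15%), by edgeR's quasi-likelihood test with section as a block and Benjamini-Hochberg adjustment at 0.05, as in every gene comparison below. All 3 tested genes of sensory axons, 5 of 7 of mitral and tufted cells, all 3 of ensheathing glia and 8 of 17 of astrocytes were higher, and 4 of 11 tested granule cell genes and 2 of 4 myelin genes were lower. The median log2 fold change of all tested genes was 0.13, and section values of both sides did not overlap for 9.32% of genes. The fitted fold change is against the mean of the regions' log levels, so a gene very high in 1 other region can have a positive fold change with a CPM ratio near 1. Since the naming rule asked for the same side in each section, a shared side is no separate support. A gene entered the test by reaching a minimum level in enough sums of any region. One high only in the outer layers could thus enter through them. Of sensory axon genes 3 of 15 and of ensheathing glia genes 3 of 10 were tested. Their shares of higher genes, here and against single regions, are no separate support and do not describe the whole lists.

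Genes of sensory axons were among those with the largest folds. All 3 tested genes of 15 on the list of olfactory sensory neurons were higher, with a median log2 fold change of 2.29. Gng13, a G-protein gamma subunit of chemosensory cells, measured 224, 172 and 265 CPM in the layer and 102, 86.1 and 72.9 CPM in the others (adjusted p = 4.45e-07). S100a5, a calcium-binding protein of these neurons (chromosome 3, 90608523 to 90611780, mm10), measured 245, 291 and 424 CPM in the layer and 149, 115 and 157 CPM in the others (2.12 ± 0.28, adjusted p = 2.24e-11). For both, the layer was higher in all sections with no overlap. Omp, the olfactory marker protein, measured 81.6, 199 and 189 CPM in the layer and 57.9, 85.5 and 109 CPM in the others (adjusted p = 1.07e-05). Its section 1 value in the layer, which rests on 4 counts, lay among the values of the others. The 37 odorant receptor symbols in the files, summed, measured 27.4 ± 30.1 CPM in the layer and 48.0 ± 53.9 CPM in the others, and none was tested. Omp lies within an annotated Capn5 transcript on the same strand and Gng13 overlaps Chtf18 on the opposite strand. The sources used here do not say whether counting used strand, so reads of overlapping genes cannot be told apart. The same holds for Eomes, Nxph1, Reln, Kctd12 and Zic1, which overlap other annotated genes.

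Some transcripts of interneurons and of GABA handling were higher. Of 5 GABA synthesis and transport genes, all tested, 3 were higher and 0 lower (median 0.62). The summed list measured 3880 to 5097 CPM in the layer and 3922 to 4739 CPM in the others. It averaged 4389 ± 632 CPM in the layer and more in IPL (5038 ± 855), GCL-E (5046 ± 602) and GCL-I (5569 ± 598). Gad2, a glutamate decarboxylase that makes GABA, measured 734, 874 and 824 CPM in the layer and 395, 580.2 and 511 CPM in the others (0.93 ± 0.16, adjusted p = 9.75e-07). The ranges did not overlap. Gad1, the other glutamate decarboxylase, measured 1753, 1298 and 1240.3 CPM in the layer and 2575, 1922 and 1716 CPM in the others and did not pass (-0.29 ± 0.14, adjusted p = 0.169). The layer value was the lower one in each section, opposite to Gad2, and the difference between the genes was not tested. The GABA transporter gene Slc6a11 (1035 ± 115 CPM in the layer, 787 ± 115 CPM in the others) and the GABA-degrading enzyme gene Abat (703 ± 109 CPM in the layer, 512 ± 179 CPM in the others) were higher. Which cells these 2 transcripts came from was not tested. Both lost their calls with no section block and without section 2. Slc6a11 also lost its own against a pooled sum of the other regions, with 5 regions alone and with boundary spots left out. Slc32a1, the vesicular GABA transporter gene, did not pass (-0.00765, adjusted p = 0.990). Th was the single tested gene of the dopamine list. The other 5 in the files, Ddc, Gch1, Slc18a2, Slc6a3 and Nr4a2, had between 1 and 20 counts in the layer. Vsnl1, visinin-like 1, a neuronal calcium sensor, measured 277 ± 77.8 CPM in the layer and 130.0 ± 13.5 CPM in the others (1.30 ± 0.28, adjusted p = 0.000152). Together with Calb2 it made 2 of 2 tested calcium-binding genes. Of 10 tested transcription factors of bulb interneurons, Zic1 and Etv1 were higher, Tshz1 was lower and 7 did not pass. Zic1, a zinc finger factor (chromosome 9, 91358058 to 91365810), measured 204, 311 and 272 CPM in the layer and 154, 123 and 92.1 CPM in the others (adjusted p = 9.66e-07). Its level was also high in GCL-E, at 229 ± 143 CPM, and its ranges against the mean of the others did not overlap.

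Nrsn1 had the smallest adjusted p of the named genes. It encodes neurensin-1, a vesicle membrane protein of neurons (chromosome 13, 25252040 to 25270502, minus strand), and measured 1039.8, 1066 and 1112 CPM in the layer, against 317, 427 and 406 CPM in the others. The sections spread by 36.4 CPM (SD) in the layer, and all 3 lay far above the others (1.78 ± 0.17, adjusted p = 2.81e-23). It passed against each of the 8 regions taken alone, with M/T next at 609 ± 149.8 CPM (adjusted p = 0.00798) and RMS lowest at 85.0 ± 99.0 CPM. Shisa9, an auxiliary subunit of AMPA receptors, measured 183, 265 and 265 CPM in the layer and 53.4, 104 and 101 CPM in the others (1.74 ± 0.31, adjusted p = 9.66e-07). Ncan, neurocan, a proteoglycan of the neural matrix, measured 265, 344 and 318 CPM in the layer and 90.4, 144 and 123 CPM in the others (1.59 ± 0.26, adjusted p = 1.84e-07). Neither overlapped. Another 4 genes named by size were lower in section 1 than in sections 2 and 3 on both sides, and their ranges overlapped. They were Mfap3l (194 ± 129 CPM in the layer, 95.5 ± 39.5 CPM in the others), the septin gene Sept3 (259.9 ± 173 CPM in the layer, 136 ± 72.3 CPM in the others), the phosphoinositide 3-kinase subunit gene Pik3r1 (217 ± 122 CPM in the layer, 108 ± 70.7 CPM in the others) and the membrane progestin receptor gene Paqr8 (263 ± 144 CPM in the layer, 149 ± 88.8 CPM in the others).

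Mitral and tufted cell transcripts were higher than in the mean of the other regions for 5 of 7 tested members of 14 (median 1.29). The summed list was not highest in the layer. It averaged 3456 ± 1316 CPM there, 4828 ± 1160 in M/T, 4305 ± 2207 in EPL and 2557 ± 1269 in ONL. The regions deeper than M/T averaged from 1040 CPM in RMS to 1766 CPM in IPL. Cck, cholecystokinin, a peptide of tufted cells, measured 979, 384 and 393 CPM in the layer and 379, 187 and 178 CPM in the others (1.69 ± 0.20, adjusted p = 5.17e-14). The layer values lay above those of the others in all sections, with section 1 high on both sides. Cdhr1, a cadherin-related gene, measured 581 ± 190.4 CPM in the layer and 326 ± 134 CPM in the others (1.29 ± 0.20, adjusted p = 7.88e-09), and Doc2g, a gene of the double C2 domain family, 634 ± 299 CPM in the layer and 378 ± 175 CPM in the others (1.32 ± 0.20, adjusted p = 7.88e-09). Slc17a7, the vesicular glutamate transporter VGLUT1, measured 1060.2, 351 and 287 CPM in the layer and 733, 252 and 375 CPM in the others (0.73 ± 0.19, adjusted p = 0.00314). The layer was higher in 2 of 3 sections, and the call was lost against a pooled sum, with no section block and without section 1 or 2. Of 10 tested neuropeptide and granin genes, Cck, Npy, Scg3 and Pcsk1n were higher. Scg3, Pcsk1n and the vesicle gene Sncb, given next, lost their calls with library sizes alone, with DESeq2 and with 5 regions alone. They also lost them with boundary spots left out, against a pooled sum and with no section block. Pcsk1n further lost its call with RLE scaling, with spots joined by name and with any 1 section left out, and Scg3 and Sncb theirs without RMS. Of 20 tested synaptic vesicle genes, Rab3c (234 ± 48.3 CPM in the layer, 111 ± 54.4 CPM in the others) and Sncb (362 ± 181 CPM in the layer, 263 ± 90.5 CPM in the others) were higher and 0 lower (median 0.12), a share of 2 in 20 beside 8.77% of all genes. Gria1, an AMPA receptor subunit, was higher at 573 ± 75.5 CPM in the layer and 316 ± 108 CPM in the others (0.85 ± 0.18, adjusted p = 5.79e-05), and Gria3, another subunit, was lower at 141 ± 36.6 CPM in the layer and 318 ± 63.8 CPM in the others (-0.92 ± 0.26, adjusted p = 0.00749). Gria3 lost its call with no filter on low counts, with no section block and with any 1 section left out. The other 7 of 9 tested glutamate receptor genes did not pass. Of 6 tested GABA receptor genes, 1, Kctd12, was higher. Of 14 tested neurofilament, tubulin and other microtubule genes, Map1b, a microtubule-associated protein of growing axons, was the single gene to pass. It measured 1734 ± 858 CPM in the layer and 1238 ± 729.8 CPM in the others (0.88 ± 0.14, adjusted p = 8.96e-08). None of 69 tested ribosomal protein genes and none of 8 tested neuroblast genes passed.

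**Figure D2:**
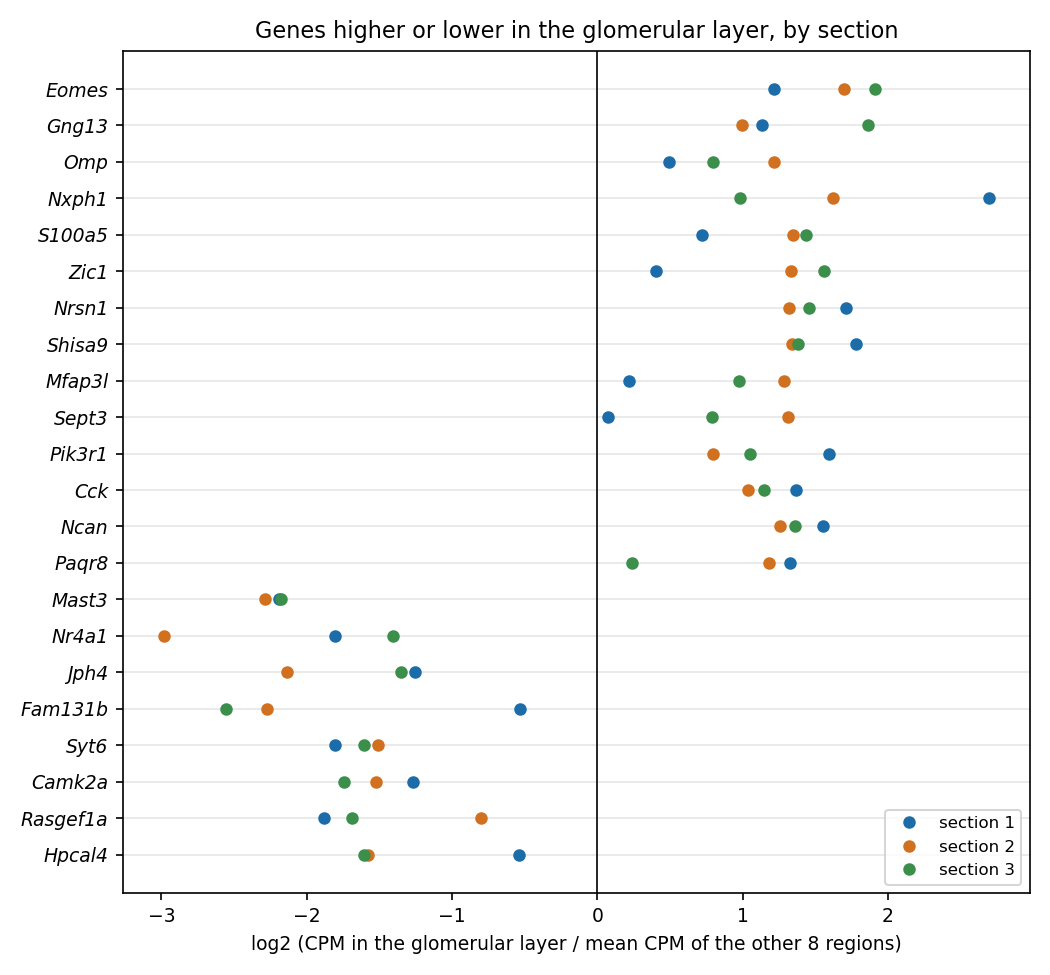
Log2 ratio of CPM in the glomerular layer over the mean CPM of the other 8 regions for the 14 higher and 8 lower genes named by rule, with one point per section. Every higher gene lies right of 0 and every lower gene left of 0 in each section, as the rule required, and the ratio of means runs from 3.03 for Eomes to 0.216 for Mast3.

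Several astrocyte and ensheathing glia transcripts were higher in the layer. Of 17 tested astrocyte genes 8 were higher and 0 lower (median 0.43). The summed list measured 19035 to 19878 CPM in the layer and 15659 to 18154 CPM in the others. It was not highest in the layer, where it averaged 19584.5 ± 476 CPM. The average was 22661 ± 3369 in EPL, 21946 ± 4821 in RMS and 19653 ± 1231 in ONL. Differences between these sums were not tested. Sparcl1, a secreted synaptogenic protein, measured 2365, 2886 and 2412 CPM in the layer and 1261, 1865 and 1662 CPM in the others, with no overlap (0.88 ± 0.13, adjusted p = 1.17e-09). Glul, glutamine synthetase, averaged 2155 ± 550.1 CPM in the layer and 1537 ± 288 CPM in the others. The calls of Glul, Apoe and Slc1a3 were lost against a pooled sum, with 5 regions alone and with boundary spots left out. They were also lost with no section block and without section 2. Apoe and Slc1a3 lost theirs with library sizes alone too, and Slc1a3 with RLE scaling, with DESeq2 and without section 3. Slc1a2, the glial glutamate transporter, averaged 1662 ± 1076 CPM in the layer and 1799.5 ± 1135 CPM in the others and did not pass (adjusted p = 0.313). All 3 tested genes of 10 ensheathing glia genes were higher (median 1.22, summed list 1549 to 2389.8 CPM in the layer and 1214 to 1361 CPM in the others), while Matn4 had 0 counts in the layer. Apod, apolipoprotein D, measured 673, 887 and 892 CPM in the layer and 534, 538 and 511 CPM in the others (1.40 ± 0.17, adjusted p = 3.14e-14). Fabp7, a fatty acid binding protein of radial and ensheathing glia, measured 326, 874 and 1119 CPM in the layer and 289.7, 574 and 650.3 CPM in the others (1.22 ± 0.17, adjusted p = 1.42e-10). Apod did not overlap, whereas Fabp7 was low in section 1 on both sides.

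Some haemoglobin genes of red blood cells were higher than in the mean of the other regions as well. Of 4 tested haemoglobin genes 3 were higher (median 0.77), with a summed list of 1258 to 1913 CPM in the layer and 1078 to 1304 CPM in the others. The log2 ratio of that sum was 0.65, -0.05 and 0.58 in sections 1, 2 and 3. The sum was not highest in the layer, where it averaged 1621 ± 334 CPM, beside 2708 ± 895 in ONL and 1662 ± 522 in EPL. Against EPL 0 of the 4 tested genes passed, and against ONL 0 were higher and 1 was lower. Hba-a2 averaged 574 ± 129 CPM in the layer and 403 ± 9.70 CPM in the others, with the caution that haemoglobin copies are near identical and reads between them are uncertain. Ptgds, the single passing gene of 2 tested meningeal genes, averaged 1177 ± 332 CPM in the layer and 1067 ± 89.8 CPM in the others, a ratio of 1.10 with the layer higher in 2 of 3 sections. It lost its call without section 2, with 5 regions alone, with boundary spots left out, against a pooled sum and with no section block, and Hba-a2 lost its own in the last 4 of these. Hbb-bs, another of the 3, lost its call in those 4, with library sizes alone, with DESeq2 and without section 1 or 3, and its sign turned with boundary spots left out. The summed meningeal list measured 1081 to 1799.9 CPM in the layer and 1312 to 1460.2 CPM in the others, and Lum had 0 counts in the layer. Neither of 2 tested endothelial and mural genes passed (summed list 1339 to 1529 CPM in the layer and 1056 to 1506 CPM in the others), with Acta2 at 0 counts in the layer. Cst3, the single tested microglial gene, averaged 2373 ± 505 CPM in the layer and 2877 ± 753 CPM in the others (adjusted p = 0.926). What part blood, vessels, meninges and ensheathing glia have in the layer's other differences was not tested.

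**Figure D3:**
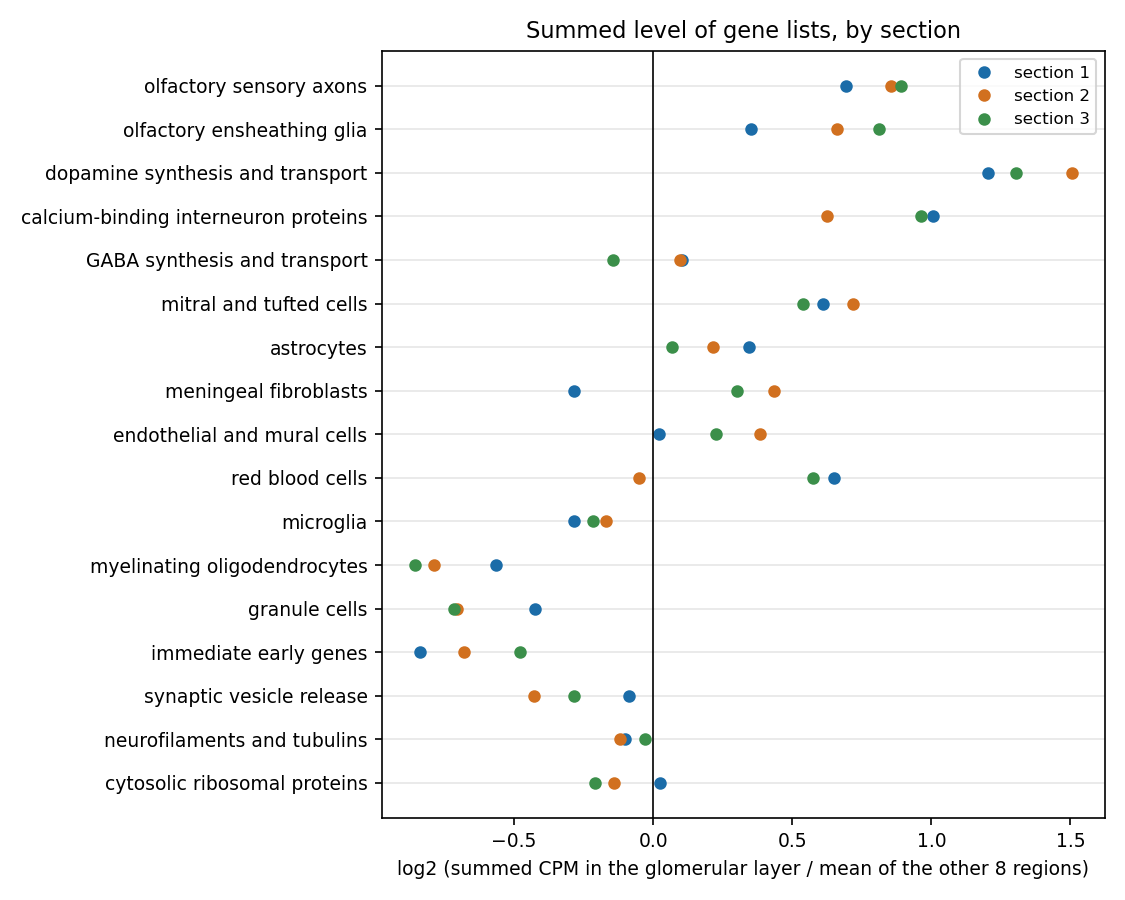
Log2 ratio of each gene list's summed CPM in the glomerular layer over the mean of the other 8 regions, with one point per section. The dopamine, calcium-binding and mitral and tufted cell lists lie right of 0 in all 3 sections, and the granule cell and myelin lists left of 0. The mitral and tufted cell list nevertheless averaged higher in M/T and EPL than in the layer.

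Transcripts lower in the layer included some of granule cells and myelin. Of 11 tested granule cell genes 4 were lower and 1, Gad2, higher (median -0.58), and the summed list measured 4651 to 6055 CPM in the layer and 7633 to 8135 CPM in the others. Camk2a, the alpha subunit of a calcium- and calmodulin-dependent kinase of synapses, measured 102, 192 and 212 CPM in the layer and 245, 552 and 709 CPM in the others (-1.20 ± 0.22, adjusted p = 4.93e-06). The layer had the lowest mean of the 9 regions, with no overlap against the mean of the others. Pcp4, a calmodulin-binding protein, measured 897, 311 and 378 CPM in the layer and 1495, 1049.5 and 881 CPM in the others (-1.05 ± 0.17, adjusted p = 6.13e-08). Its section 1 value in the layer lay among the values of the others. Tshz1, a zinc finger factor of bulb interneurons, averaged 296 ± 45.9 CPM in the layer and 559 ± 134 CPM in the others, and Nrgn, neurogranin, 212 ± 134 CPM in the layer and 439 ± 166 CPM in the others, both lower in the layer in all sections. Of 4 tested myelin genes, Mbp (1061 ± 522 CPM in the layer, 1822 ± 652 CPM in the others, adjusted p = 0.0436) and Mobp (279 ± 44.3 CPM in the layer, 497 ± 154 CPM in the others, adjusted p = 0.0415) were lower and 0 higher (median -0.32). Both calls were lost with DESeq2, without RMS, with 5 regions alone, with boundary spots left out, with no filter on low counts, with no section block and with any 1 section left out, while both kept their sign. Hpcal4, a calcium sensor of neurons, measured 204, 119 and 106 CPM in the layer and 296, 357 and 323 CPM in the others (-1.14 ± 0.28, adjusted p = 0.00139), with no overlap.

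Other genes lower in the layer had few counts there. Mast3, a microtubule-associated kinase, had 7 counts in the layer over all sections and 25.3 ± 13.6 CPM, against 117 ± 61.4 CPM in the others (-1.74 ± 0.55, adjusted p = 0.0209). Nr4a1, an activity-induced nuclear receptor, measured 102, 13.2 and 30.3 CPM in the layer and 357, 104 and 80.4 CPM in the others (-1.57 ± 0.45, adjusted p = 0.00909), and was the single gene of 3 tested immediate early genes to pass. Egr1 averaged 354 ± 259 CPM in the layer and 578 ± 388 CPM in the others (adjusted p = 0.108). Jph4, a neuronal junctophilin, the synaptotagmin gene Syt6 and the Ras exchange factor gene Rasgef1a did not overlap between sides, at 49.4 ± 19.8, 66.9 ± 14.3 and 59.8 ± 13.8 CPM in the layer and 139 ± 20.1, 212 ± 65.3 and 166 ± 51.9 CPM in the others. Fam131b averaged 103 ± 105 CPM in the layer and 257 ± 58.9 CPM in the others. Mast3, Nr4a1, Jph4, Syt6, Rasgef1a and Fam131b all lost their calls with no filter on low counts, with no section block and without section 2. Syt6 and Rasgef1a also lost theirs without section 1 or 3. The split of calls moved with scaling, to 97 higher and 86 lower with library sizes alone, 145 and 61 with RLE scaling, 143 and 94 without RMS, 89 and 35 with DESeq2, and 72 and 122 against 1 pooled sum of the other regions. Leaving out section 2 or 3 brought the count to 56 or 96, and a fit with no section block to 13. Of 57 named genes that passed, 26, 37 and 13 kept their call in these fits.

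Against single regions, the fewest genes passed for the 2 neighbours of the layer. It differed from ONL in 38 genes (1.9%), from EPL in 32 (1.6%) and from RMS in 46 (2.3%), the last with 1456 to 16285 counts. It differed from IPL in 64 (3.21%), from M/T in 85 (4.26%), from GCL-E in 130 (6.51%), from E in 258 (12.9%) and from GCL-I in 296 (14.8%). The split was 43 higher (2.15%) and 21 lower (1.05%) against IPL, 59 (2.96%) and 26 (1.3%) against M/T, and 84 (4.21%) and 46 (2.3%) against GCL-E. It was 172 higher (8.62%) and 124 lower (6.21%) against GCL-I, 151 (7.57%) and 107 (5.36%) against E, and 40 (2%) and 6 (0.301%) against RMS, where the median log2 fold change of all genes was 0.47. These comparisons share the layer's sums, and the regions differ in total counts, so the numbers of calls cannot be ranked as sizes of difference.

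**Figure D4:**
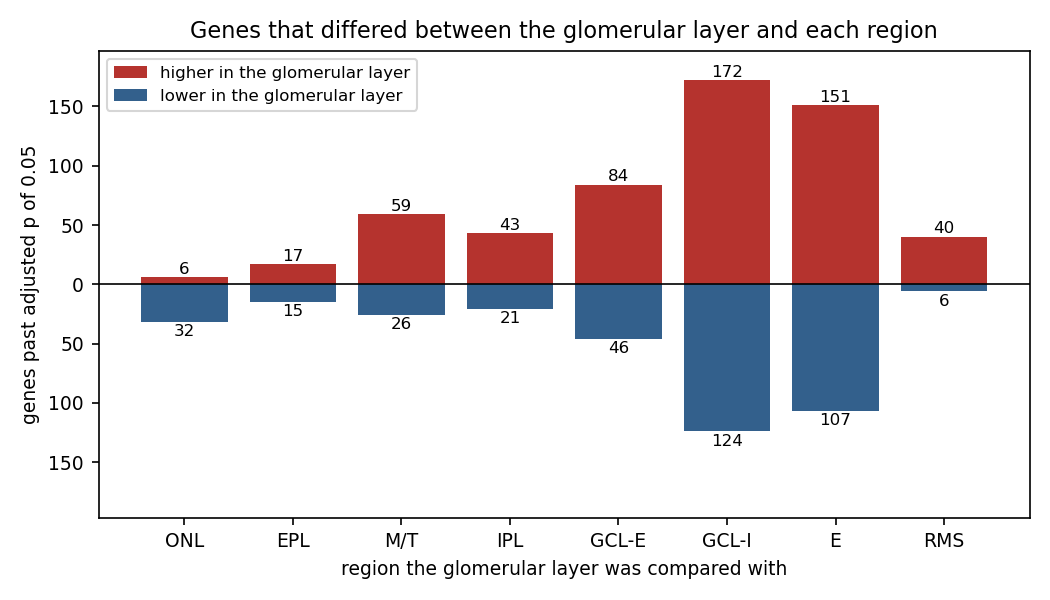
Number of genes past an adjusted p of 0.05 in the comparison of the glomerular layer with each other region, with genes higher in the layer above 0 and genes lower in the layer below 0. The counts run from 17 higher and 15 lower against EPL to 172 higher and 124 lower against GCL-I.

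Compared with the olfactory nerve layer, its outer neighbour, the glomerular layer was lower in 2 of 3 tested genes of sensory axons, 2 of 3 of ensheathing glia and 1 of 2 of meninges. Of the 38 genes, 6 were higher (0.301%) and 32 lower (1.6%), while the median log2 fold change was 0.02 and 10.3% of genes did not overlap between the regions' sections. Ptgds, a prostaglandin D synthase of meningeal cells, measured 795, 1403 and 1331 CPM in GL and 4509, 3580.5 and 4188 CPM in ONL (-1.72 ± 0.16, adjusted p = 2.53e-22). Every ONL value was more than any GL value. Scd1, a fatty acid desaturase, measured 163, 364 and 363 CPM in GL and 193, 1698 and 1584 CPM in ONL (-2.14 ± 0.21, adjusted p = 5.81e-21). In section 1 the 2 regions lay close together. Igfbp5, an insulin-like growth factor binding protein, measured 204, 291 and 295 CPM in GL and 322, 1203 and 1293 CPM in ONL (-2.03 ± 0.22, adjusted p = 6.22e-17), again with the smallest gap in section 1. Vtn, vitronectin, averaged 148 ± 49.0 CPM in GL and 419 ± 44.4 CPM in ONL (adjusted p = 0.000886), and Slc7a11, a cystine transporter, 108 ± 42.4 CPM in GL and 278 ± 189 CPM in ONL (adjusted p = 0.0153).

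Some axonal and glial genes that were higher in GL than in the mean of the other regions were lower in GL than in ONL, and others did not pass. Omp measured 81.6, 199 and 189 CPM in GL and 258, 410.4 and 601 CPM in ONL (-1.44 ± 0.36, adjusted p = 0.00601), and S100a5 245, 291 and 424 CPM in GL and 773, 495 and 692 CPM in ONL (-0.92 ± 0.27, adjusted p = 0.0326). Neither overlapped. Gng13, the other tested gene of these neurons, averaged 220.4 ± 46.4 CPM in GL and 339.6 ± 176 CPM in ONL and did not pass (-0.50 ± 0.37, adjusted p = 0.701). Apod averaged 817 ± 125 CPM in GL and 1937 ± 432 CPM in ONL (adjusted p = 6.34e-09), Fabp7 773 ± 406 CPM in GL and 1854 ± 676 CPM in ONL (adjusted p = 4.33e-10) and Kctd12, an auxiliary subunit of GABA-B receptors, 358 ± 241 CPM in GL and 833 ± 277 CPM in ONL (adjusted p = 2.56e-05). Hbb-bs, Sparc, a matrix glycoprotein, and Ncam1, an adhesion molecule, were also lower, Ncam1 in 2 of 3 sections. Of 17 tested astrocyte genes 0 passed against ONL, among them Sparcl1 (log2 difference 0.30, adjusted p = 0.610) and Glul (-0.05, adjusted p = 0.980), and Npy did not pass either (-0.69, adjusted p = 0.579). What part the meningeal, blood and glial transcripts of ONL have in the other differences was not tested.

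All 6 genes higher in GL than in ONL were named. Nrsn1 measured 1039.8, 1066 and 1112 CPM in GL and 515, 651 and 382 CPM in ONL (0.99 ± 0.23, adjusted p = 0.00159), and Calb2 1529, 649 and 809 CPM in GL and 708, 368 and 364 CPM in ONL (0.98 ± 0.24, adjusted p = 0.00601). Inpp5f, an inositol phosphatase, measured 163, 225 and 159 CPM in GL and 64.4, 56.6 and 0 CPM in ONL (2.28 ± 0.61, adjusted p = 0.0131), on 5 counts in ONL. Shisa9 (238 ± 46.9 CPM in GL, 55.9 ± 56.6 CPM in ONL), Dzank1 (222 ± 86.3 CPM in GL, 60.7 ± 63.9 CPM in ONL) and Doc2g (634 ± 299 CPM in GL, 338 ± 210.0 CPM in ONL) followed, the first 2 with 0 counts in ONL of section 1. Over both directions, leaving out section 2 brought the count of 38 to 6 genes, 1 of them higher in GL. Leaving out section 3 brought it to 12, with 0 higher, and DESeq2 to 20, with 2 higher. A fit with no section block gave 0. Of 19 named genes that passed in either direction, 5 kept their call without section 2 and 8 without section 3.

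The external plexiform layer is the inner neighbour of the glomerular layer and a zone of dendrites. Compared with it, the glomerular layer was higher in all 3 tested genes of sensory axons and all 3 of ensheathing glia. The limit set by the count filter, given above, holds here too. Of 14 tested neurofilament, tubulin and other microtubule genes, 2 were lower, Map1a and Map2, and no tubulin or neurofilament gene passed. Of the 32 genes, 17 were higher (0.852%) and 15 lower (0.752%), while the median log2 fold change was -0.00113 and 5.71% of genes did not overlap. All 3 tested sensory axon genes were higher, with S100a5 at 245, 291 and 424 CPM in GL and 124, 153 and 128 CPM in EPL (1.20 ± 0.28, adjusted p = 0.00399). Omp averaged 156 ± 65.0 CPM in GL and 52.6 ± 20.8 CPM in EPL (adjusted p = 0.0305) and Gng13 220.4 ± 46.4 CPM in GL and 78.7 ± 11.6 CPM in EPL (adjusted p = 0.0163). None of these 3 overlapped. In the main fit GL thus lay below ONL and above EPL for Omp and S100a5, and above EPL for Gng13. With boundary spots left out, S100a5 lost its call against ONL and Omp its call against EPL. DESeq2 kept only the call of Omp against ONL. S100a5 against ONL was also lost with library sizes alone and without section 1. None of these calls was kept without section 2 or without section 3. The same was true when the section block was dropped and when low-count genes were kept in.

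Interneuron genes passed in part. Of the lists, 1 of 1 tested dopamine genes, 1 of 5 GABA synthesis and transport genes, 1 of 2 calcium-binding genes and 1 of 10 interneuron transcription factors were higher in GL than in EPL, and 0 lower. Th measured 571, 199 and 166 CPM in GL and 206, 49.3 and 79.8 CPM in EPL (1.48 ± 0.34, adjusted p = 0.00298), Gad2 734, 874 and 824 CPM in GL and 303, 345 and 519 CPM in EPL (1.02 ± 0.20, adjusted p = 6.43e-05). Gad2 did not overlap, and Th was higher in GL within each section. Gad1 (log2 difference 0.09), Slc32a1 (0.47), Slc6a11 (-0.31), Abat (0.45) and Vsnl1 (0.85) did not pass. Calb2 (996 ± 469 CPM in GL, 443 ± 147 CPM in EPL, adjusted p = 6.53e-06), Nxph1 (211 ± 51.0 CPM in GL, 66.8 ± 50.8 CPM in EPL, adjusted p = 0.0268) and Zic1 (262 ± 54.3 CPM in GL, 124 ± 28.7 CPM in EPL, adjusted p = 0.0305) were higher too, as was Nrsn1 (1072 ± 36.4 CPM in GL, 549 ± 86.3 CPM in EPL, adjusted p = 7.43e-05), which is on no interneuron list. Of the ensheathing glia genes, Npy, neuropeptide Y, measured 347, 139 and 144 CPM in GL and 82.5, 27.4 and 55.9 CPM in EPL (1.86 ± 0.43, adjusted p = 0.00309), Apod 817 ± 125 CPM in GL and 335 ± 18.8 CPM in EPL and Fabp7 773 ± 406 CPM in GL and 478 ± 92.6 CPM in EPL. Npy is also made by interneurons. Kctd12 measured 81.6, 470.0 and 522 CPM in GL and 55.0, 164 and 128 CPM in EPL (1.61 ± 0.26, adjusted p = 4.00e-07), on 4 counts in GL of section 1.

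The genes lower in GL belonged to several lists or to none, and of 20 tested synaptic vesicle genes and 9 glutamate receptor genes 0 passed. Camk2a measured 102, 192 and 212 CPM in GL and 193, 679 and 567 CPM in EPL (-1.58 ± 0.24, adjusted p = 7.93e-08). Its mRNA is known to lie in dendrites, as is that of Ddn, dendrin, which measured 81.6, 86.1 and 98.3 CPM in GL and 193, 252 and 176 CPM in EPL (-1.24 ± 0.34, adjusted p = 0.0264). Ddn did not overlap, and Camk2a in EPL of section 1 fell among the GL values. Ddn lost its call with DESeq2, with boundary spots left out, with no filter on low counts, with no section block and without section 2 or 3. What part dendrites have in these differences was not tested. Map2, the microtubule protein of dendrites, averaged 1235 ± 578 CPM in GL and 1865 ± 1097 CPM in EPL (adjusted p = 0.0264), Map1a 889.9 ± 360.3 CPM in GL and 1387 ± 633 CPM in EPL (adjusted p = 0.00858), Hpcal4 143 ± 53.2 CPM in GL and 336 ± 38.3 CPM in EPL (adjusted p = 4.25e-05), Jph4 49.4 ± 19.8 CPM in GL and 143 ± 30.6 CPM in EPL (adjusted p = 0.0268) and Luzp2 394 ± 201 CPM in GL and 776 ± 506 CPM in EPL (adjusted p = 6.43e-05). Slc1a2 measured 428, 2403 and 2155 CPM in GL and 578, 4455 and 3871 CPM in EPL (-0.83 ± 0.16, adjusted p = 7.81e-05), the single astrocyte gene of 17 to pass. Among tufted and mitral cell genes, Slc17a7 was lower in GL (566 ± 429 CPM in GL, 916 ± 768 CPM in EPL, adjusted p = 0.0335). That call was lost with library sizes alone, with DESeq2 and with boundary spots left out. It was also lost with no filter on low counts, with no section block and with any 1 section left out. Cck (log2 difference -0.04 ± 0.19) and Cdhr1 (0.05 ± 0.19) gave adjusted p = 0.964 each, and Doc2g gave -0.61 ± 0.18 (adjusted p = 0.0523). Over both directions, leaving out sections 1, 2 and 3 in turn gave 49, 3 and 9 genes, of which 30, 0 and 2 were lower in GL. DESeq2 gave 10, 3 of them lower, and a fit with no section block 0. Of 22 named genes, 3 kept their call without section 2, namely Apod, Calb2 and Kctd12.

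Within the layer, spots were placed by relative depth, the distance to the nearest ONL spot over the sum of that and the distance to the nearest EPL spot, and the outer belt (depth below 0.5) was compared with the inner belt. Position alone set this split, and the outer belt held 65884, 57561 and 61819 spots and the inner belt 92745, 92018 and 113251. Of 1108 genes tested, 6 differed (0.542%), 5 higher (0.451%) and 1 lower (0.0903%) in the outer belt, and 7.22% did not overlap. Kctd12 measured 167, 777 and 1002 CPM in the outer belt and 32.2, 286 and 240.0 CPM in the inner belt (1.77 ± 0.28, adjusted p = 0.000164). Apod measured 1001, 1467 and 1371 CPM in the outer belt and 483, 539.9 and 612 CPM in the inner belt (1.29 ± 0.20, adjusted p = 0.000164). Apod did not overlap, and Kctd12 was higher in the outer belt within each section. Fabp7 averaged 1107 ± 668 CPM in the outer belt and 577 ± 277 CPM in the inner belt (0.95 ± 0.20, adjusted p = 0.00917). Ptn, pleiotrophin, a secreted growth factor, averaged 1863 ± 892 CPM in the outer belt and 980.0 ± 542 CPM in the inner belt (0.92 ± 0.15, adjusted p = 0.000165). Ptn fell outside the naming rule and was named after its values were seen. Map1b was the gene lower in the outer belt, at 556, 1608 and 1493 CPM against 901, 2922 and 2292 CPM in the inner belt (-0.73 ± 0.14, adjusted p = 0.00248).

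Along 6 equal steps of depth, Apod averaged 2138, 1011, 788, 728, 637 and 382 CPM from the outermost to the innermost. The first bin was the highest in each section (1261, 2412 and 2742 CPM). Kctd12 averaged 1025, 668, 324, 250.0, 209 and 137 CPM over the same bins, although section 1 had 0 counts in 3 of them. Map1b ran the other way, at 926, 1249.9, 1459, 1609, 2211 and 2151 CPM. None of the 5 markers passed between the belts. Eomes averaged 213 ± 41.6 CPM in the outer belt and 287 ± 62.9 CPM in the inner belt (-0.30 ± 0.34, adjusted p = 0.820), Calb2 1034 ± 604 CPM in the outer belt and 974 ± 390.4 CPM in the inner belt (-0.00442 ± 0.20, adjusted p = 0.998), Th 371 ± 263 CPM in the outer belt and 277 ± 206 CPM in the inner belt (0.47 ± 0.34, adjusted p = 0.729), Nxph1 235 ± 66.0 CPM in the outer belt and 197 ± 59.8 CPM in the inner belt (adjusted p = 0.912) and Reln 232 ± 40.4 CPM in the outer belt and 299.9 ± 64.9 CPM in the inner belt (adjusted p = 0.779). Without the spots within 5 array positions of another region, 4 of the 5 named genes kept their call and Fabp7 did not. Fabp7 also lost its call with RLE scaling, library sizes alone, DESeq2, no filter on low counts and no section block, and without section 2 or 3, and kept its sign in each. In a split into 3 belts of equal relative depth, with the outermost set against the innermost, 9 genes were higher and 8 lower of 522 tested. In the split into 2 belts, 0 genes passed without section 2 or with no section block.

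**Figure D5:**
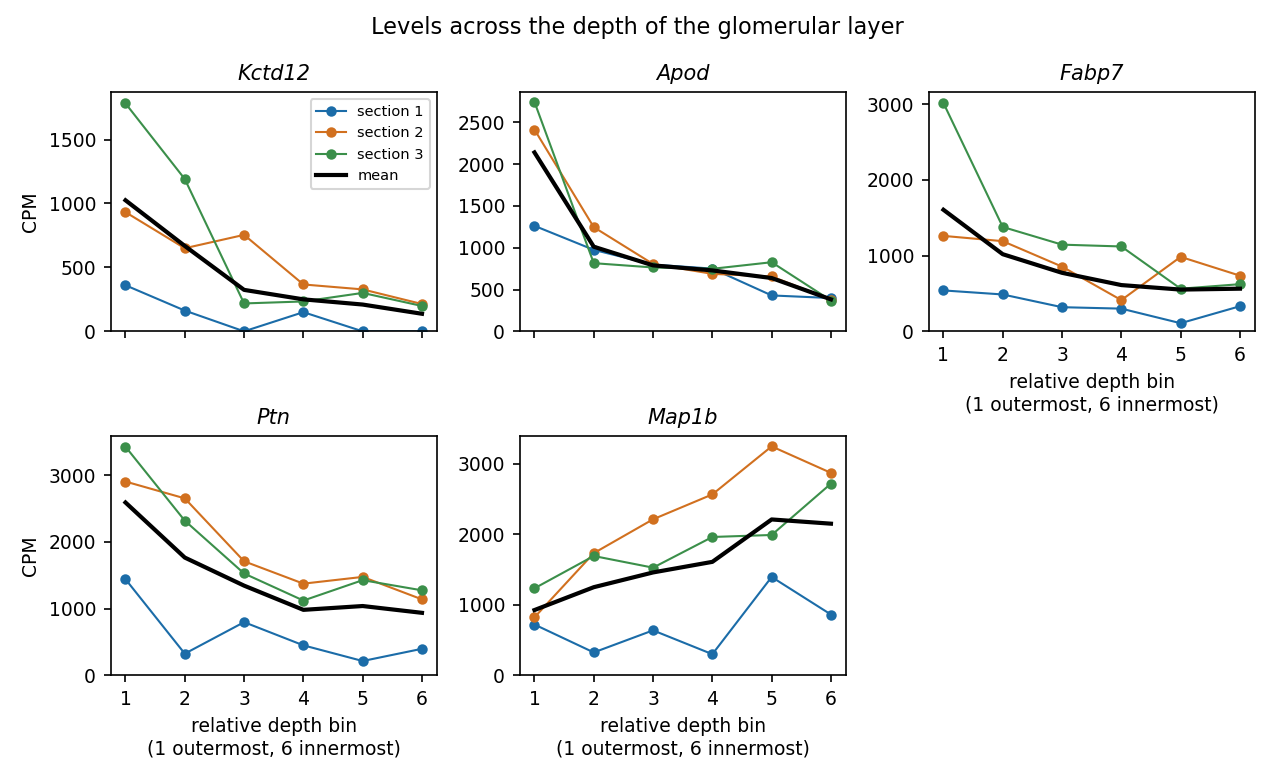
Level (CPM) of genes across 6 bins of relative depth within the glomerular layer, from the nerve layer side (1) to the plexiform layer side (6), with one thin line per section and a black line at the mean. Apod falls from a mean of 2138 CPM in the outermost bin to 382 CPM in the innermost, while Map1b is at 926 CPM in bin 1 and 2151 CPM in bin 6.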

How the data were processed

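Poly(A) RNA of 3 coronal sections was captured on spot arrays, per the labels' protocols. The authors deposited raw transcript counts per spot and gene and a table of each spot's array position, pixel position and region. Per the submitters' processing notes the genome build was mm10. The aligner, the counter, the use of strand or of molecular identifiers, and how regions were drawn are not given in the sources used here. Intervals and floors cover counting error only.

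Pixel positions tied each count entry to a region (100% found). Counts without a gene name (112, 497 and 405, or 0.0325%, 0.0764% and 0.0801%) were left out. Counts were summed into 9 regions by 3 sections, 1456 to 182699 counts each, and given as CPM with means and SDs over sections. The members, gene lists and rules were chosen with earlier results of these data known.

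The main test was edgeR 4.0.16 in R 4.3.3 (quasi-likelihood, TMM scaling, a minimum count of 10 by region, 1996 genes, or 1108 for the 2 belts), with section as a block and Benjamini-Hochberg adjustment at 0.05. The block follows shared tissue and array. The sums of all regions share 1 estimate of the spread, so a test against a single region also draws on the spread of the others. As a check, the sums' departures from their region's mean had an average r of 0.405 over 108 pairs of regions in 1 section. The lowest was 0.0583. Between sections the average r was -0.18, which adds no separate information, since a region's departures cancel over its sections. Named genes were the 14 largest higher and 8 largest lower against the other regions, 5 each way against ONL and EPL and 3 each way for the belts, each past the threshold, on 1 side in all sections and with at least 30 counts, together with the 5 markers and up to 4 passing and 2 other members of each of 27 lists. Some genes are not reported here and were left out of the lists. Fabp7, Apod and other genes repeated in a second comparison were chosen after their values were seen. A fold change fitted against a region with 0 counts depends on the prior count, so CPM is printed there. Counts per spot were compared with scipy 1.17.1 (Python 3.11.15, numpy 2.4.6, pandas 2.3.3), and figures drawn with matplotlib 3.10.9. Gene positions are from GENCODE M21 (99.8% of 19621 symbols found) and promoters from RefSeq. Alternatives were RLE scaling, library sizes alone, no filter, no block, each section left out, DESeq2 1.42.0, leaving out boundary spots, those within 5 array positions of a different region (among the 5 regions ONL, GL, EPL, GCL-I and E), no RMS, spots joined by name, 1 pooled sum of the other regions and 3 belts in place of 2. The fit of those 5 regions alone was added after the data were seen.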

Additional observations from a re-analysis of the deposited data

How the results depend on the processing

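Against the other 8 regions, 218 genes passed. The count was 206 with RLE scaling, 183 with library sizes alone, 237 without RMS, 208 with spots joined by name and 194 against a pooled sum, 647 without the filter on low counts (644 of them higher, of 19621 genes), 124 with DESeq2, 128 with 5 regions alone and 103 with those 5 and boundary spots left out. Leaving out a section gave 56 to 203. Against ONL, 38 genes passed, 15 without the filter and 20 with DESeq2, and 6 to 45 with a section left out. Against EPL, 32 passed, 12 without the filter and 10 with DESeq2, and 3 to 49 with a section left out. Between the outer and inner belts 6 passed, 17 between the outermost and innermost of 3 belts, and 0 to 8 with a section left out. Without the section block, which pairs regions of the same tissue, 13, 0, 0 and 0 genes passed in these 4 comparisons. The log2 difference in counts per 100 spots, -0.13, was 0.046 without section 1 (-0.22 to 0.046 over the sections left out), with exact permutation p from 0.476 to 0.802 over all alternatives.

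Some named genes changed sign, of which Hbb-bs was the single one past the threshold (0.64). Against the other regions, Slc1a2 was -0.24 against a pooled sum, Hbb-bs -0.0924 with boundary spots left out, and Snap25 0.00599 without the filter. Cst3 was -0.0297 with RLE scaling, -0.12 with library sizes alone, -0.0303 with DESeq2, -0.00969 with 5 regions alone and -0.13 against a pooled sum, and -0.0310 to 0.13 with a section left out. Against EPL, Cck was 0.10 without section 3 and 0.00993 when spots were joined by name, and Cdhr1 was -0.0234 without the filter, -0.0126 without the block and -0.0660 to 0.17 with a section left out. Between the belts, Eomes was 0.0270 with boundary spots left out, Nxph1 -0.0769 without the filter, and Calb2 0.0162 with RLE scaling, 0.0485 without the block, 0.0232 with DESeq2, 0.000999 between the outermost and innermost of 3 belts and -0.11 to 0.0842 with a section left out. Depth limits section 1 most, with 49049 counts in the layer, where 3 counts are 61.2 CPM. The causes of these changes were not tested.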
